A study of Mus musculus with 8 samples.

Results

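A group of genes of the secretory pathway and of the blood plasma was followed on every array of a liver study. Fkbp11 and Ero1a encode enzymes that help proteins fold in the endoplasmic reticulum, and Hp, Itih2 and Lcn2 encode plasma proteins tied to the acute phase response. They are 5 of 9030 genes named on the array and hold 6 of its 12771 named probes, as Lcn2 has 2 probes and the others 1 each. The members were chosen by gene symbol and selected on measured values. An earlier treatment of these arrays had singled out Fkbp11, Ero1a, Hp and Itih2 by their mean ratios in mice 2 to 4, and Lcn2 was added as an acute phase protein without such a mean. Their mean ratios are therefore given as a description, with no test. Differences between dye orientations and the hybridisation of mouse 1 are given as separate measures. That choice did not use them directly, but the orientation difference is not independent of it. Ratios spread more widely with the mutant in Cy3 than in Cy5 in each of mice 2 to 4. Choice by the mean can therefore favour members with the ratio of larger size in Cy3.

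The liver RNA came from 4 male Abcb4-/- mice of the strain Balb/cByJ, 17 weeks old. Abcb4 is the phospholipid floppase of the bile canaliculus, and mice without it secrete bile that injures the bile ducts. By its labels, each mutant was hybridised on 2 two-colour cDNA arrays, once in Cy5 and once in Cy3, against 1 pool of liver RNA from male wild-type mice of the same strain and age. For the number of wild-type animals in the pool, the labels say 4 and the protocol for labelling says 6. How the allele was made is not stated in the labels.

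Each value is a log2 ratio to which 1 constant per array was applied. Thus 0 means equal signal in mutant and pool only after that constant, and 1 means a 2-fold difference. Inferred from placeholder values read as a ratio of 100000, the constants were -0.59 to -0.39 in the Cy5 columns and 0.57 to 0.62 in the Cy3 columns. Positive is likely mutant over pool. The direction is not stated, and it rests on the mutant being the first channel of every sample and on the signs of placeholder values. If the columns with the mutant in Cy3 ran the other way, the mean of Fkbp11 would be -0.12, of Ero1a -0.07, of Hp 0.08, of Itih2 0.24, and of the Lcn2 probes -0.03 and 0.10. On mouse 1, the sum of its 2 columns stayed within 0.012 of 0 for each of 20577 probes, so they hold 1 hybridisation entered with both signs, and mouse 1 was left out of all means. Means are over mice 2, 3 and 4 (n = 3), each the average of its 2 arrays. Over all probes, the 2 arrays of a mouse correlated at 0.10 in mouse 2, -0.13 in mouse 3 and 0.01 in mouse 4, so the average of a mouse joins arrays that did not read alike, and its SD over mice is no measure of the spread between arrays. Between 20577 and 20738 probes per array had a usable ratio, and 20391 had one on all 6 arrays of these mice. Ratios were spread most widely on the Cy3 array of mouse 3 (SD 0.56), compared with SDs of 0.24 to 0.33 on the 6 other separate hybridisations. Ratios carry no level of expression, so the labelled tissue could not be checked against its marker genes. The single probe named Abcb4 had log2 ratios of 0.07 and -0.26 in mouse 2, -0.11 and -1.20 in mouse 3, and -0.18 and 0.05 in mouse 4, with Cy5 first. Its mean was -0.27 ± 0.33 (SD, n = 3; limma adjusted p = 0.513), and since its place relative to the deleted part is unknown, it does not check the genotype. In whole liver, a change in RNA per cell and a change in the share of a cell type cannot be told apart. Gene names rest on the platform annotation. Over the 1951 genes with exactly 2 measured probes, the correlation of the mean ratios of the probes was -0.02, a description over genes, so probes given 1 symbol did not read alike. Ratios of members, of their nearest probes and of Abcb4 are those of single probes. For other named genes the value is the mean over the gene's probes, 1 to 5 of them, and can join unlike readings.

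Proteins bound for the plasma enter the endoplasmic reticulum as unfolded chains. There, chaperones hold them, prolyl isomerases turn their proline bonds, and oxidases pass electrons from new disulphide bonds to oxygen. When unfolded chains build up, the unfolded protein response raises the genes of this machinery through the transcription factors ATF6 and XBP1. The acute phase response is a second programme of the hepatocyte, driven by interleukin-6 through STAT3 and C/EBP factors. It raises some plasma proteins, such as haptoglobin and lipocalin 2, and lowers others.

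The folding enzymes stood above the pool on every array of mice 2 to 4. Fkbp11, a membrane-anchored prolyl isomerase of secretory cells, had log2 ratios of 0.40 and 0.55 in mouse 2, 0.29 and 0.68 in mouse 3, and 0.32 and 0.52 in mouse 4, with the mutant in Cy5 first and in Cy3 second (array feature 4788). In each of these mice the array with the mutant in Cy3 gave the higher ratio, and the lowest of the Cy3 values lay above the highest of the Cy5 values. The mean was 0.46 ± 0.04 (SD, n = 3), a ratio of 1.38 between mutant and pool. The SD over the 6 arrays, which keeps the gap between orientations, was 0.15. By rank, the mean lay at the 99.2 percentile of all 20391 probes.

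Ero1a, the oxidase that reloads protein disulphide isomerase and gives off hydrogen peroxide in doing so, had log2 ratios of 0.49 and 0.27 in mouse 2, 0.10 and 0.60 in mouse 3, and 0.27 and 0.41 in mouse 4, in the same order of dyes (array feature 464). The highest and the lowest value were both from mouse 3, and all 6 were above 0. The orientation that read higher changed between mice, Cy5 in mouse 2 and Cy3 in mice 3 and 4. Its mean was 0.36 ± 0.02 (SD, n = 3), a ratio of 1.28. The averages of mice 2, 3 and 4 were 0.38, 0.35 and 0.34, and their SD lay at the 2.04 percentile of all probes. The SD over the 6 arrays was 0.18, against a median of 0.21 over all probes, so the small SD over mice is one of averages over unlike arrays.

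For the folding enzymes, Fkbp11 and Ero1a, the stretch around the start site is shown, from RefSeq (GRCm38.p6). It runs from 250 bases before to 50 after the start. RefSeq windows matched 4 of the 5 members, with 5 windows in all, because Fkbp11 has 2 start sites; Hp is named only. Capitals mark matches on either strand to CCACG, the inner part of the endoplasmic reticulum stress element, or to ACGTG, a core shared by sites of XBP1 and of the hypoxia factor HIF. The Fkbp11 window is chr15:98727578-98727877 on the minus strand and that of Ero1a is chr14:45318523-45318822, also on the minus strand.
Fkbp11: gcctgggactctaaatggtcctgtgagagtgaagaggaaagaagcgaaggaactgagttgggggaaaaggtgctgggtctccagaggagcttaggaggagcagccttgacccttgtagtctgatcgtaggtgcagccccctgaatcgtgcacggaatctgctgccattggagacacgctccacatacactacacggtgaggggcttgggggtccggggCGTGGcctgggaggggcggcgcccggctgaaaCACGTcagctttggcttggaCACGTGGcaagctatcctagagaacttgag
Ero1a: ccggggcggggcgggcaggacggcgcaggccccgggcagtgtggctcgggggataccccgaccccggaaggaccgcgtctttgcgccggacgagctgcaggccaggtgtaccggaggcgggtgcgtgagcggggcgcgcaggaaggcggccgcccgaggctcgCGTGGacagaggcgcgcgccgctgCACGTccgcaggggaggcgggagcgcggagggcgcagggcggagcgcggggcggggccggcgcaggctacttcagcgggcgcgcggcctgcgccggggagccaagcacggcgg

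In this Fkbp11 window CCACG matched at 2 places and ACGTG at 3, and the matches overlap in the run CACGTGG that begins at position 21, where position 1 is the start site. The window of the other Fkbp11 start, chr15:98728149-98728448 on the same strand, held neither. In Ero1a each motif matched once, CCACG at position -87 and ACGTG at position -63, in a window with 80.3% G and C against a median of 52.7%. Of all 32851 RefSeq windows of this length, 32.8% held CCACG and 19.6% held ACGTG, so such matches are frequent, and they describe letters, not binding.

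Among the acute phase members, haptoglobin had the largest ratio. Hp, whose protein binds free haemoglobin and is made mainly by hepatocytes, had log2 ratios of 0.31 and 0.43 in mouse 2, 0.71 and 0.35 in mouse 3, and 0.85 and 0.61 in mouse 4, with Cy5 first (array feature 41). All 6 values were above 0. Mouse 4 gave the highest average, 0.73, mouse 3 followed at 0.53, and mouse 2 was lowest at 0.37. The mean was 0.54 ± 0.18 (SD, n = 3), a ratio of 1.46, at the 99.5 percentile of all probes. The Cy3 value of mouse 4 equalled the constant of its array, as a spot with equal signals in both channels would before that constant was applied. Across all tested probes, 6.31% of values took such a ratio of whole numbers up to 5, within 0.001.

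Itih2, a heavy chain of the inter-alpha-trypsin inhibitor that is linked to hyaluronan in the matrix, lay below the pool. Its log2 ratios were -0.19 and -0.29 in mouse 2, -0.08 and -1.03 in mouse 3, and -0.11 and -0.49 in mouse 4 (array feature 19271). All 6 values were below 0, and in every mouse the array with the mutant in Cy3 was lower. The mean was -0.37 ± 0.17 (SD, n = 3), so the pool read 1.29 times the mutant. The mean was -0.13 over the Cy5 arrays and -0.60 over the Cy3 arrays. The value of -1.03 came from the array with the wide spread, where it lay at the 4.57 percentile, and the mean was -0.21 when only the Cy5 array stood for mouse 3.

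Lcn2, the siderophore-binding lipocalin of hepatocytes and neutrophils, had small mean ratios, but its second probe was spread widely over the mice. The first probe (array feature 1788) had log2 ratios of 0.10 and 0.07 in mouse 2, 0.001 and 0.23 in mouse 3, and 0.08 and 0.08 in mouse 4. These 6 values were all above 0, the smallest by 0.001, and the mean was 0.09 ± 0.02 (SD, n = 3). The second probe (array feature 4468) had 0.18 and 0.14 in mouse 2, 0.08 and -0.41 in mouse 3, and 0.33 and 0.28 in mouse 4, with a mean of 0.10 ± 0.24 (SD, n = 3). It was above 0 on 5 of 6 arrays, and the exception was the wide array of mouse 3, on which the first probe read its highest value. The means of the probes differed by 0.0057, against a median difference of 0.11 over the genes with 2 probes, but their root mean square difference over the 6 arrays was 0.30. The mean of the second probe was -0.003 without mouse 4 and 0.23 without mouse 3.

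**Figure D1:**
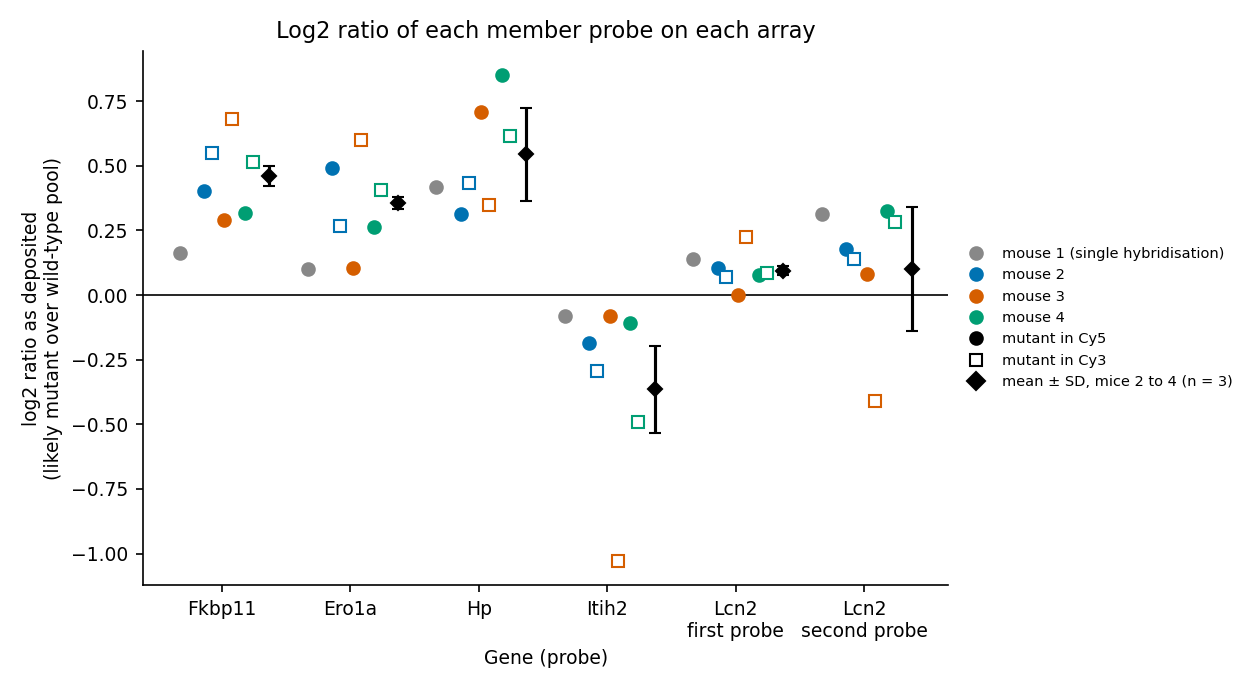
Log2 ratio, likely mutant over wild-type pool, of the 6 probes (x axis) on each separate hybridisation (y axis). Filled circles have the mutant in Cy5 and open squares in Cy3, colours mark the mice, and diamonds with bars give the mean ± SD of mice 2 to 4 (n = 3). Fkbp11, Ero1a and Hp lie above 0 on all 6 arrays of mice 2 to 4 and Itih2 below 0 on all 6, with its lowest value at -1.03.

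The windows of Itih2 and Lcn2 are given for the acute phase members, with capitals for matches to TTGCNNAA, a form of the C/EBP site, searched on both strands. The Itih2 window is chr2:10130634-10130933 and the Lcn2 window chr2:32387690-32387989, both on the minus strand.
Itih2: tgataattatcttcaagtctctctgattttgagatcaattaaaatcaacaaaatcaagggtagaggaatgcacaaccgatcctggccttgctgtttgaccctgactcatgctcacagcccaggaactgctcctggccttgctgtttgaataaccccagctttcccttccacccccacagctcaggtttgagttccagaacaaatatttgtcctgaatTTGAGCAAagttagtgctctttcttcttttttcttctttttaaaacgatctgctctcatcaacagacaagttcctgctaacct
Lcn2: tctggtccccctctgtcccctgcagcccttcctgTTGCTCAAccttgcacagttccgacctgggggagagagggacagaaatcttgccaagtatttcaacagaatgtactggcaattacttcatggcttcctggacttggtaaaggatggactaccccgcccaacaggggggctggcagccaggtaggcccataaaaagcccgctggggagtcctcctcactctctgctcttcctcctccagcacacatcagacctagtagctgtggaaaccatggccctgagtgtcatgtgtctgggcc

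The match in Itih2 lay at position -33 and that in Lcn2 at position -216. TTGCNNAA was found in 10.8% of all windows. TTCNNNGAA, the general form of STAT sites, was in neither window nor in those of Fkbp11 and Ero1a, and 8.30% of all windows held it. Neither CCACG nor ACGTG was found in the windows of Itih2 and Lcn2.

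From highest to lowest, the mean log2 ratios ran from Hp through Fkbp11 and Ero1a to the Lcn2 probes and Itih2, which was below 0. Hp and Fkbp11, at 0.54 and 0.46, differed by less than the SD of Hp over mice, as did the Lcn2 probes by less than either SD. Counted by sign, 4 of the 6 probes were above 0 on all 6 arrays, as were 6.23% of all probes, and 1 was below 0 on all 6, as were 0.907% of all probes. With the Cy3 columns turned, 0 of the 6 were above 0 on all arrays and 0 below, against 6.76% and 1.37% of all probes. With limma, a linear model with moderated variances, 123 of the 20391 probes passed an adjusted p under 0.05 for the ratio of mutant to pool, which is 0.603% of them, 0.461% higher and 0.142% lower. The split rests on the direction and the arrays used: it was 87 higher and 0 lower with the Cy3 columns turned, 24 and 51 on the Cy3 arrays alone, 72 and 3 on the Cy5 arrays alone, and 88 and 89 without mouse 4. The sign counts and this contrast are those that chose the members, so they are a description and no member's call is given.

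The difference between orientations of a mouse, mutant in Cy5 minus mutant in Cy3, was tested with limma over all probes. It passed for 87 probes, or 0.427%, all with the higher ratio in Cy5, and for 0 of the 6 member probes. At an unadjusted p under 0.05 there was 1 member probe, Itih2, and 2846 of the 20391 probes in all. Its differences in mice 2, 3 and 4 were 0.11, 0.95 and 0.39, with a mean of 0.48 (95% interval 0.04 to 0.92, limma adjusted p = 0.317). The mean was 0.25 both without mouse 3 and after centring and scaling of the arrays. Fkbp11 had -0.15, -0.39 and -0.20, with a mean of -0.25 (95% interval -0.59 to 0.10, limma adjusted p = 0.518), so it lay on the other side of 0 from Itih2. For both, the orientation with the larger ratio in size was Cy3 in 3 of 3 mice. The SD of all ratios was also wider on the Cy3 than on the Cy5 array, 0.33 against 0.28 in mouse 2, 0.56 against 0.24 in mouse 3 and 0.32 against 0.27 in mouse 4. Members chosen by the mean can lean to Cy3 through that choice, so this lean is a description.

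Ero1a, Hp and the first Lcn2 probe had differences of both signs among the mice. The mean was -0.14 for Ero1a (95% interval -0.55 to 0.28, limma adjusted p = 0.783) and 0.16 for Hp (95% interval -0.22 to 0.53, limma adjusted p = 0.720). For the first Lcn2 probe it was -0.07 (95% interval -0.42 to 0.28, limma adjusted p = 0.890). The second Lcn2 probe had 0.04 and 0.05 in mice 2 and 4 and 0.49 in mouse 3, and a mean of 0.19 (95% interval -0.19 to 0.57, limma adjusted p = 0.657). These intervals do not show that the orientations read alike.

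**Figure D2:**
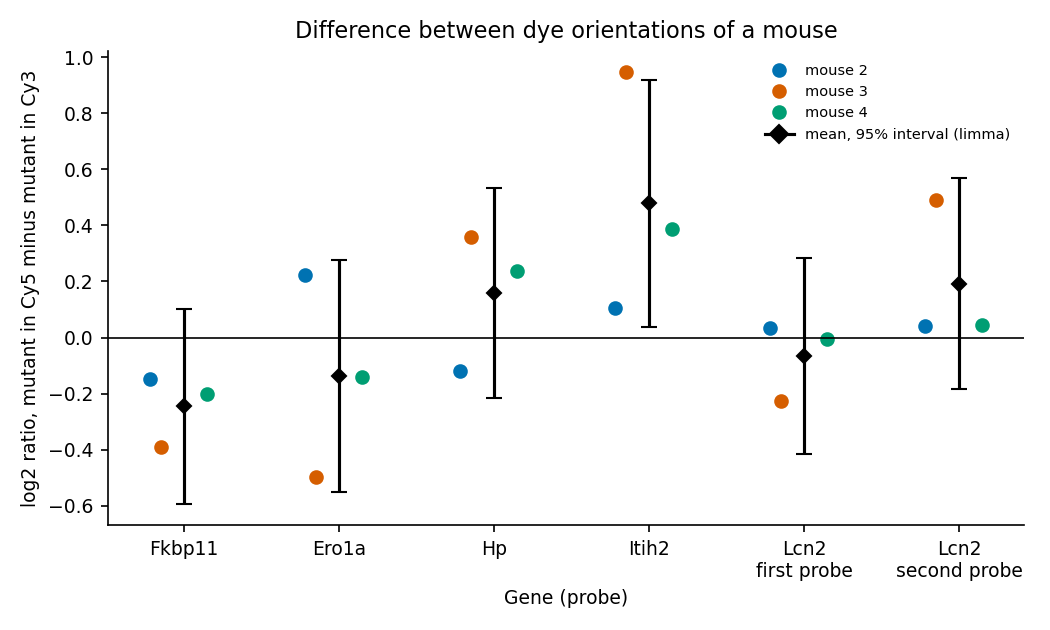
Difference in log2 ratio between the arrays of a mouse, mutant in Cy5 minus mutant in Cy3 (y axis), for the 6 probes (x axis). Points are mice 2, 3 and 4, and diamonds with bars are the mean with its 95% interval from limma. The interval of Itih2 lies above 0, from 0.04 to 0.92, with mouse 3 highest at 0.95, and the other 5 span 0.

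Mouse 1 entered none of these means. In its first column, with the mutant in Cy5, Fkbp11 had a log2 ratio of 0.16, Ero1a 0.10, Hp 0.42, Itih2 -0.08, and the Lcn2 probes 0.14 and 0.32. All 6 had the sign of their mean in mice 2 to 4. Of all 20323 probes measured there, 49.0% did so, 53.7% of those with a positive mean and 42.2% of those with a negative one. Hp stood at the 94.4 percentile of that hybridisation, the second Lcn2 probe at the 90.3, Fkbp11 at the 76.3, the first Lcn2 probe at the 72.3, Ero1a at the 66.0 and Itih2 at the 26.8. This is 1 hybridisation of 1 orientation against the same pool, so no test was made, and the second column of mouse 1 holds the same values with the sign turned.

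Other genes of protein folding in the endoplasmic reticulum were spread around 0. Of 45 probes for 31 further genes, 0 passed the limma test in either direction, 8 had an unadjusted p under 0.05, 3 of them above 0, and 10.1% of all probes had such a p. An unmoderated test passed 0 of all 20391 probes. As only 0.603% of all probes passed the limma test, 0 in a list of this size, here and below, does not show that its genes were unchanged. There were 23 of the 45 above 0, with a median log2 ratio of 0.003, against 59.1% above 0 and a median of 0.02 over all probes. The highest gene means were those of Mogs, the glucosidase that trims the first glucose of N-glycans, at 0.21 ± 0.22, and of Fkbp14, another luminal prolyl isomerase, at 0.18 ± 0.08. The lowest were those of Hsp90b1, the chaperone GRP94, at -0.56 ± 0.39, and Txndc11, a thioredoxin-domain protein, at -0.43 ± 0.25 (SD, n = 3 each).

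The FK506-binding family, to which Fkbp11 belongs, had 13 further probes of 8 genes, with 0 past the threshold, 3 at an unadjusted p under 0.05, 8 above 0 and a median of 0.08. Its members ran from Fkbp1a, the cytosolic target of FK506, at -0.16 ± 0.12 and Fkbpl at -0.03 ± 0.01 to Fkbp4, a cochaperone of steroid receptors, at 0.14 ± 0.14 and Fkbp14. The Fkbp1a mean joined 2 unlike probes, at 0.08 ± 0.15 and -0.40 ± 0.37, and that of Fkbp4 joined 2 at 0.08 and 0.20. Of the 31 probes of the unfolded protein response and of degradation, 0 passed, 5 had an unadjusted p under 0.05, 20 were above 0 and the median was 0.05. Xbp1, the transcription factor activated by IRE1, was lowest at -0.13 ± 0.16, beside Derl2 of the degradation channel at -0.10 ± 0.27. Creb3l3, a membrane-bound factor of the hepatocyte, was highest at 0.23 ± 0.14, beside Derl3 at 0.20 ± 0.14. In the 42 probes of translocation and secretory transport 0 passed, 4 had an unadjusted p under 0.05, 19 were above 0 and the median was -0.02, from Srp68 of the signal recognition particle at -0.26 ± 0.11 and Copa of the COPI coat at -0.21 ± 0.31 to Srp19 at 0.19 ± 0.05 and Rpn2, an oligosaccharyltransferase subunit, at 0.21 ± 0.15 (SD, n = 3 each).

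Acute phase genes other than the members were spread on both sides of 0. Among 32 probes of 27 further genes listed here as rising in inflammation, 0 passed and 6 had an unadjusted p under 0.05. Of the 32, 19 were above 0, and the median was 0.02. Whether each listed gene rises in mice was not tested. The mannose-binding lectins Mbl1, at 0.36 ± 0.08, and Mbl2, at 0.32 ± 0.16, were the highest gene means, and both were above 0 on 6 of 6 arrays. The lowest were Pzp, a protease inhibitor of the alpha-2-macroglobulin family, at -0.71 ± 0.66, and Serping1, the C1 inhibitor, at -0.23 ± 0.11 (SD, n = 3 each). Of 16 probes for 13 further genes listed here as falling in inflammation, 0 passed and 1 had an unadjusted p under 0.05. There were 10 above 0, with a median of 0.04. The lowest gene means were Fetub at -0.11 ± 0.15 and Igfals, the carrier of IGF complexes, at -0.07 ± 0.06. The highest were Serpina6, which carries glucocorticoids, at 0.11 ± 0.25 and coagulation factor F12 at 0.19 ± 0.05 (SD, n = 3 each).

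The inhibitor family of Itih2 gave 5 further probes, of which 0 passed, 0 had an unadjusted p under 0.05 and 4 were above 0, with a median of 0.07. The heavy chains Itih3 and Itih1 stood at -0.03 ± 0.11 and 0.04 ± 0.23, and Itih4 and Itih5 at 0.18 ± 0.19 and 0.19 ± 0.16 (SD, n = 3 each). Itih2 had the lowest mean of the heavy chains measured, and was the only one below 0 on all 6 arrays. It was chosen by this mean and the other heavy chains were not, so its rank and signs are a description. Among 22 probes of acute phase signalling, 0 passed, 1 had an unadjusted p under 0.05, 13 were above 0 and the median was 0.03. The cytokines Il6 and Il1b were at -0.17 ± 0.29 and 0.27 ± 0.36, Tnf at 0.18 ± 0.19, and the kinase Jak1 at -0.25 ± 0.21 (SD, n = 3 each).

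**Figure D3:**
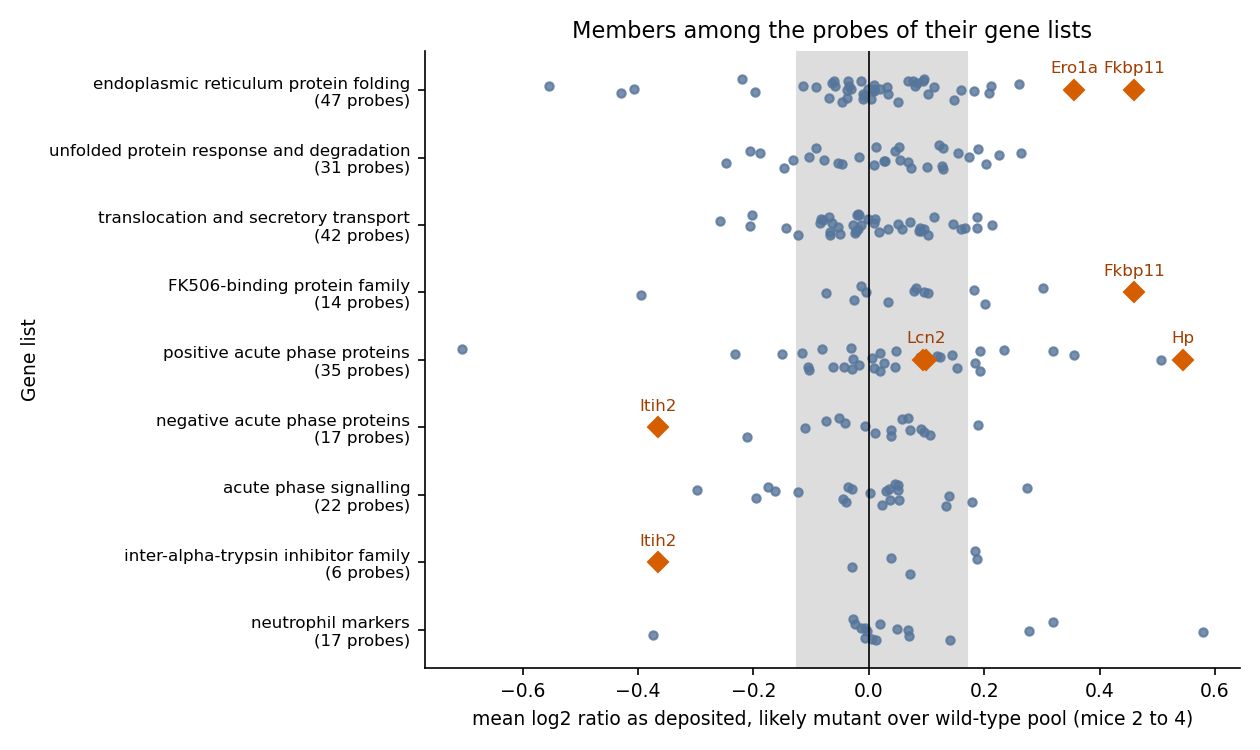
Mean log2 ratio over mice 2 to 4 (x axis) of every probe in 9 gene lists (y axis, number of probes in brackets). Diamonds are the members, named above the symbol, dots are the other probes spread vertically for visibility, and the grey band holds the middle of all probes, from -0.13 to 0.17 (10th to 90th percentile). Fkbp11, Ero1a, Hp and Itih2 lie outside the band, as their choice by this mean implies, and both Lcn2 probes lie inside it.

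Hp and Lcn2 are also stored in the granules of neutrophils. Of 17 neutrophil marker probes 0 passed, 4 had an unadjusted p under 0.05, 3 of them above 0, and 10 were above 0, with a median of 0.01. Elane, neutrophil elastase, was at 0.58 ± 0.31 and Mmp8, the neutrophil collagenase, at 0.32 ± 0.10, while S100a9 was at -0.03 ± 0.13 and the integrin Itgam at -0.37 ± 0.09 (SD, n = 3 each). The median of the list on an array ran from -0.10 to 0.22 over the 7 separate hybridisations. The part of neutrophils in the ratios of Hp and Lcn2 was not tested. Of 16 further probes of haptoglobin and haem handling, 0 passed, 1 had an unadjusted p under 0.05 and 9 were above 0, with a median of 0.01. The receptor for haptoglobin and haemoglobin, Cd163, was at -0.20 ± 0.40 and the haem oxygenase Hmox1 at 0.08 ± 0.03, with biliverdin reductases Blvrb at -0.05 ± 0.33 and Blvra at 0.15 ± 0.10. The Blvra mean joined 2 unlike probes, at -0.06 and 0.35. Of 8 further lipocalin probes, 0 passed, 0 had an unadjusted p under 0.05 and 6 were above 0, with a median of 0.07, from Ptgds at -0.02 ± 0.14 and Apod at -0.02 ± 0.19 to Orm1 at 0.09 ± 0.01 and the lipocalin receptor Slc22a17 at 0.17 ± 0.14 (SD, n = 3 each). The 2 Slc22a17 probes stood at 0.07 and 0.26.

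Markers of other cells gave 0 probes past the threshold as well, in lists of 5 to 11 probes, where 0.603% of all probes passed. There were 11 hepatocyte probes, with 6 above 0, a median of 0.0003 and 0 at an unadjusted p under 0.05, from Ttr at -0.06 ± 0.13 and Cyp3a11 at -0.04 ± 0.29 to Hpd at 0.04 ± 0.14 and Fgb at 0.12 ± 0.14. The Ttr mean joined 2 unlike probes, at 0.09 and -0.21. The 5 macrophage probes had 4 above 0, a median of 0.01 and 0 at such a p, with Clec4f at -0.08 ± 0.14, Marco at 0.01 ± 0.07, Lyz2 at 0.02 ± 0.10 and Cd5l at 0.16 ± 0.06. The 9 cholangiocyte probes had 7 above 0, a median of 0.07 and 2 at such a p, with Cldn4 at -0.20 ± 0.14, Krt19 at -0.07 ± 0.06 and Sox9 at 0.10 ± 0.09. Krt7 at 0.81 ± 1.10 held a value of 3.96 on the Cy3 array of mouse 2. The 11 red blood cell probes had 8 above 0, a median of 0.05 and 1 at such a p, with Klf1 at -0.26 ± 0.16, Alas2 at -0.19 ± 0.29, Hba-a1 at 0.07 ± 0.05 and Sptb at 0.15 ± 0.04. The 5 plasma cell and lymphocyte probes had 4 above 0, a median of 0.06 and 1 at such a p, with Cd79b at -0.08 ± 0.20, Cd3d at 0.02 ± 0.10, Cd3g at 0.17 ± 0.08 and Sdc1 at 0.27 ± 0.04 (SD, n = 3 each).

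The probes most like each member over the 6 arrays, by the root mean square difference of log2 ratios over 12466 named probes (12465 for Lcn2), differed between the members. For Fkbp11 they were Sox6, Tigar and Ivd, at differences of 0.09, 0.09 and 0.10. For Ero1a they were Mtmr6, Dnpep and Sod2, at 0.07, 0.08 and 0.09. For Hp the nearest was a probe of Il1rn, which encodes the interleukin-1 receptor antagonist, at 0.16 and with a mean of 0.51 ± 0.18 (SD, n = 3), followed by Rpl36al at 0.17 and Cab39l at 0.21. The other Il1rn probe had a mean of -0.08 ± 0.18 (SD, n = 3). Itih2 was nearest to Hpse, Sema3f and Ercc2, at 0.13, 0.13 and 0.14. The first Lcn2 probe was nearest to Hoga1, Orm1 and Hdgfl1, at 0.03 each, and the second to Col5a3, Gtse1 and Nit2, at 0.07, 0.08 and 0.09. Between members, Fkbp11 and Ero1a differed by 0.16 and Fkbp11 and Hp by 0.32, and the Lcn2 probes were farther from each other, at 0.30, than each was from its nearest probe of another gene. The points share the pool, the mice and the arrays, so these distances are a description.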

How the data were processed

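Liver RNA of 4 Abcb4-/- mice was hybridised to two-colour cDNA arrays against 1 wild-type pool; the 8 columns hold 7 separate hybridisations. The cDNA was labelled indirectly per the labels' protocols. The authors deposited log2 ratios per probe with 1 constant per array; for the scanner, background correction, normalization, scale and direction, the sources used here give nothing, and log2 was inferred from the placeholder values. Column medians, in the order mouse 1 Cy5, mouse 1 Cy3 to mouse 4 Cy3, were 0.023, -0.023, 0.054, -0.060, 0.069, 0.078, 0.081 and -0.031. Without intensities, signal over background stayed unknown; precision is limited by the number of arrays.

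Values over 15 in size, 19 to 83 per array, were dropped as placeholders, all above 0 where the mutant was in Cy5 and all below 0 where it was in Cy3. Columns were used as deposited. Of 20794 probes, 12771 had 1 symbol, 0 several and 8023 were unnamed here; symbols were set against the GRCm38.p6 gene table and 0 changed. A probe needed both orientations in mice 2 to 4. Single probes were fitted, since members are reported by probe, in R 4.3.3 by lmFit and eBayes of limma 3.58.1, with two-sided p-values adjusted by Benjamini-Hochberg and a threshold of 0.05, on mouse means against 0 and on orientation differences against 0. The pool is the only control, so its animals' own spread enters no p-value. The fit was tested on simulated data, where it recovered 47 of 100 features changed by a log2 ratio of 0.5. It recovered 100 of 100 changed by 1, with 4 false calls. The simulated noise was normal, centred on 0 and independent between features and mice, without a shared pool or arrays of unequal spread. These counts therefore check the fit and do not give its error rates on the deposited ratios. Symbols in the text followed a rule: all member probes, per list the 2 highest and the 2 lowest other genes (all where a list has under 5), the 3 nearest probes per member, and Abcb4. The members, lists and motifs were chosen with earlier results of these data known. The alternatives were leaving out mice, centring, scaling, gene averages, single orientations, turned columns, adding mouse 1, other rules for mouse 3 and for missing values, a random mouse block with a dye term, an unmoderated test and another threshold.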

Additional observations from a re-analysis of the deposited data

Results flagged for a closer look

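The second Lcn2 probe read -0.41 on the Cy3 array of mouse 3, apart from its 5 other arrays, which ran from 0.08 to 0.33. The gap to the nearest, 0.49, was 0.67 of the whole range, above the Dixon value of 0.625 for 6. The same array had an SD of log2 ratios of 0.561, against 0.331 for the next widest of 7 separate hybridisations, a gap of 0.72 of the range against 0.568. For Itih2 the lowest value, -1.03, came from this array too, with a gap of 0.57 of the range, under 0.625. The array also gave the highest ratios of Fkbp11, Ero1a and the first Lcn2 probe, at 0.68, 0.60 and 0.23. Of 7 such groups looked at, chance marks about 1 in 20, and arrays of a mouse are not independent. The part of the array's wide spread in these values was not tested.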

How the results depend on the processing

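Over 11 alternatives for each of 6 member probes, 43 of 66 means moved by less than the SD over mice and 23 by more. Part of the 43 was fixed in advance. With so few mice, leaving out any of them must shift the mean by less than that SD. Averaging the probes of a gene cannot change Fkbp11, Ero1a, Hp or Itih2, which have a single probe each. The tally over the 66 means is therefore no measure of stability. The sign changed in 5, which were Fkbp11, Ero1a, Itih2 and the first Lcn2 probe with the Cy3 columns turned, and the second Lcn2 probe without mouse 4. Leaving out a mouse gave 0.45 to 0.48 for Fkbp11, 0.34 to 0.37 for Ero1a, 0.45 to 0.63 for Hp and -0.43 to -0.27 for Itih2.

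The count of probes past the threshold, 123, became 228 at an adjusted p under 0.1, 67 after median centring, 62 after centring and scaling, 56 features with probes of a gene averaged, 75 with the mutant in Cy5 alone and 75 in Cy3 alone. It was 131 with mouse 1 added and 87 with the Cy3 columns turned, of which 4 were among the 123; turned, the test is that of the orientation difference. It was 51 with mouse 3 from its Cy5 array, 60 with at least 1 array per mouse, 189 with a dye term and mouse block, and 0 with an unmoderated test, which gave 1589 at an unadjusted p under 0.05. It ranged from 4 without mouse 2 to 177 without mouse 4, and was 31 without mouse 3. The orientation count, 87, became 14 after median centring, 4 after centring and scaling and 26 with gene averages, and ranged from 0 without mouse 3 to 640 without mouse 2, with 387 without mouse 4. The causes were not tested. Depth is unknown, so low signals could not be set apart.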
